A study of Mus musculus with 6 samples.

Results

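Genes of the cell cycle, mitosis and DNA replication were followed in endothelial cells of the marrow, sorted from male C57BL/6J mice. The set held 49 genes chosen by symbol, and 47 of them, among 22180 genes measured on the array, had a probe set that named no other gene. Ccne2 shared its probe set with Ints8, and Ccnb1 was not analysed here. There were 3 diabetic arrays, from mice given diabetes by feeding on fat, and 3 nondiabetic ones. Every label names 1 diet, 60 kcal% fat for 4 months, also those of the nondiabetic mice, so the feed of the nondiabetic mice is unclear. The labels also do not give the age of the mice, the gate of the sort, or whether mice were pooled. Each sample was a sort of 5000 cells whose total RNA was amplified before hybridisation, and values are log2 expression after robust multi-array averaging. All 14 general endothelial marker genes looked at, among them Cdh5, Pecam1 and Kdr, lay above the limit used for dim genes, a log2 value of 5.07. Their mean per array was 9.08 to 9.81 in the diabetic and 9.12 to 9.62 in the nondiabetic group. Since a probe set's brightness depends on its probes, levels are compared between arrays for 1 gene and not between genes.

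A dividing cell passes through G1, copies its DNA in S phase and separates the copies in mitosis. D-type cyclins with CDK4 or CDK6, then cyclin E with CDK2, release E2F transcription factors, which switch on the genes for DNA replication. A later wave of genes for the spindle, the kinetochore and the mitotic kinases follows, and inhibitors such as p21 and p27 hold the cyclin-dependent kinases back. Most endothelial cells of an adult are quiescent, while the marrow around them holds many dividing blood precursors.

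None of the 47 tested cell cycle genes passed the test for a difference between diabetic and nondiabetic cells. At a limma adjusted p under 0.05, with Benjamini-Hochberg adjustment over all 13308 tested genes, 0 members were called in either direction, and the smallest adjusted p among them was 0.997. Over all tested genes 1 was called, a background of 0.00751%. At an unadjusted p under 0.05 there were 4 members, Bub1 and Mcm5 with higher and Cenpq and Rrm2 with lower values in diabetic cells. That is 8.51% of the members against a background of 4.25%, of which 3.19% were higher and 1.07% lower. Without nondiabetic replicate 2 there was 1 member at that threshold. Values were higher in diabetic cells for 31 members and lower for 16, which is 66% where 54% of all tested genes had higher values. The median difference, diabetic minus nondiabetic on the log2 scale, was 0.08 over the members and 0.02 over all tested genes. The largest differences were 0.51 for Mcm5 and -0.57 for Cenpq, and no member differed by more than 1, a factor of 2. Groups did not overlap for 6 members, 4 of them higher and 2 lower in diabetic cells, or 12.8% against a background of 7.95%, of which 5.28% were higher and 2.67% lower. The 2 lower ones were Cenpq and Rrm2, the latter on its brighter probe set only. Without diabetic replicate 1 the values were higher for 25 members and the median was 0.02 (-0.0065 over all tested genes), and without nondiabetic replicate 1 the median was 0.04. Without diabetic replicate 3 the median was 0.16.

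**Figure D1:**
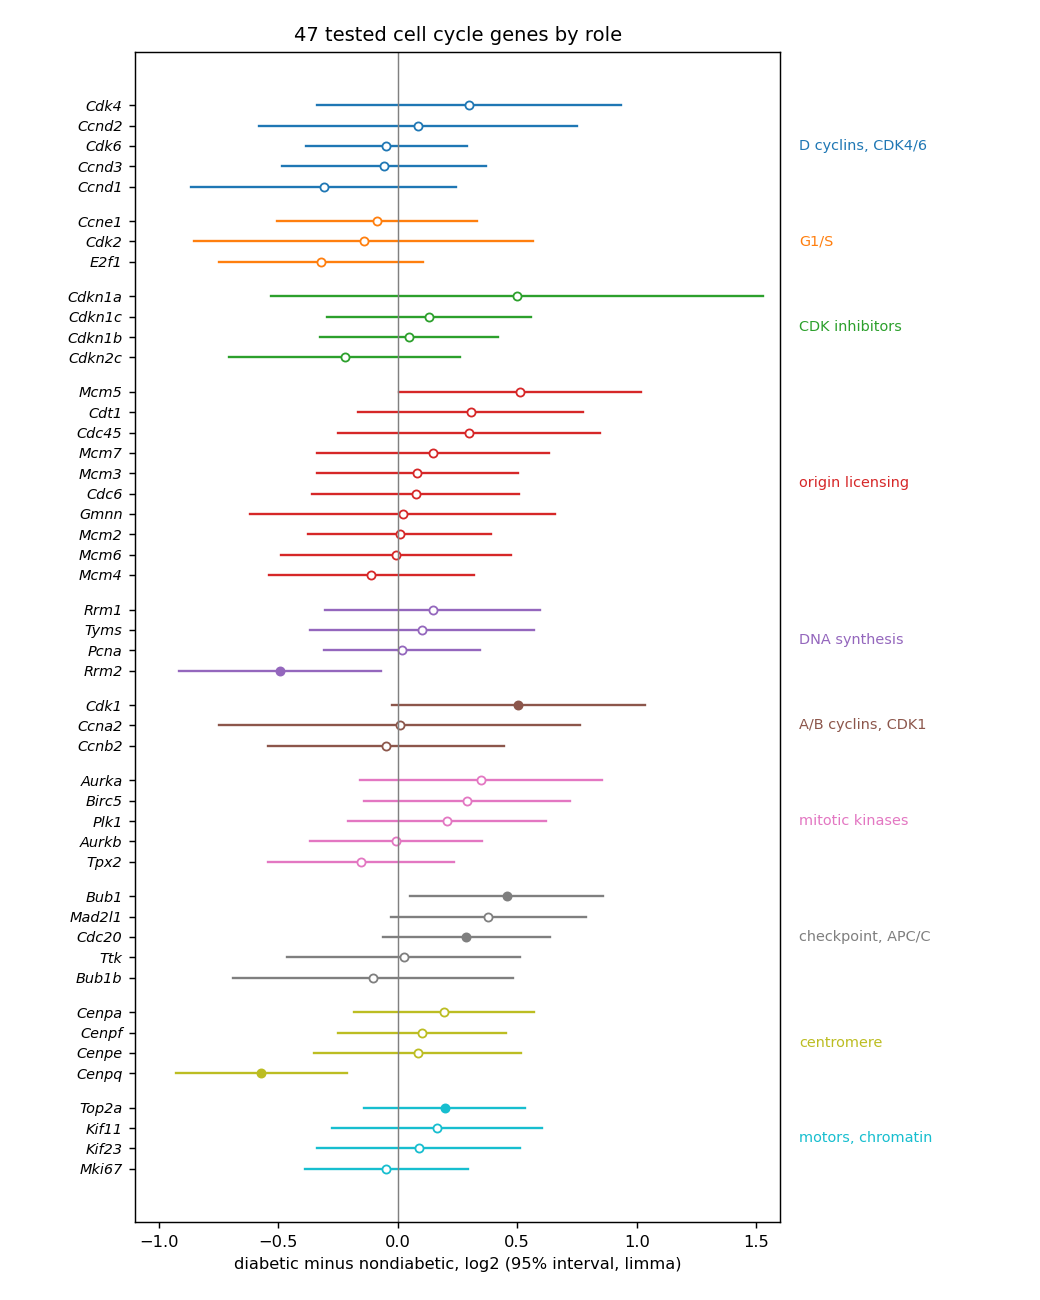
Difference of each of the 47 tested cell cycle genes, diabetic minus nondiabetic on the log2 scale, with its unadjusted 95% interval from limma (3 arrays against 3), grouped by role. Filled points mark the 6 genes whose groups did not overlap. The differences run from -0.57 for Cenpq to 0.51 for Mcm5.

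The intervals say how large a difference these arrays leave room for. For 44 of the 47 members the 95% interval lay within 1 of zero on the log2 scale, that is, inside a factor of 2 either way. The same held for 89.4% of all tested genes. The exceptions were the inhibitor gene Cdkn1a, with an interval of -0.53 to 1.53, Cdk1, with -0.03 to 1.03, and Mcm5, whose interval reached 1.02. Only 9 members (19.1%) had an interval within 0.5 of zero, against 28.7% of all tested genes, so for the other members a difference of that size is not settled by these arrays. The median standard error of a member was 0.19, as it was for all tested genes.

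The 6 members whose groups did not overlap, and Mcm5, are shown with the stretch of 150 bases before their start site. Promoters of mitotic genes often carry a cell cycle homology region, written CHR, with CCAAT boxes nearby, and promoters of replication genes often carry E2F sites. The stretches come from RefSeq on GRCm38.p6 and read from 5′ to 3′ on the gene's strand, from base -150 to base -1. Capitals mark matches on either strand to CHR (TTTGAA or TTCGAA), to CCAAT and to E2F (TTTGGCGC, TTTGCCGC, TTTCGCGC or TTTCCCGC).
Cdk1: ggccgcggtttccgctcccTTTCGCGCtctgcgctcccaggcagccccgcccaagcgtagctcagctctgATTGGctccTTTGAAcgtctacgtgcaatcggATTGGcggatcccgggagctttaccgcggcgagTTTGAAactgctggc
Cdc20: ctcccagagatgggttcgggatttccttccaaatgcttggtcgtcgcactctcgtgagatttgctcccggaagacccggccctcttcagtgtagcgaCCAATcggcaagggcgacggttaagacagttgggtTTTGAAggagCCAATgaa
Top2a: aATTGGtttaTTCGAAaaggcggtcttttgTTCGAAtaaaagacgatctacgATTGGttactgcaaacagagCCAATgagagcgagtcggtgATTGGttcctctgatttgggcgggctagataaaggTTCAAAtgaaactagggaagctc
Bub1: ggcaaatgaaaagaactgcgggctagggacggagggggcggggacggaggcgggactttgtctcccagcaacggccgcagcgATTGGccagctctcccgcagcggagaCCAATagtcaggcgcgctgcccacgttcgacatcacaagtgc
Cenpq: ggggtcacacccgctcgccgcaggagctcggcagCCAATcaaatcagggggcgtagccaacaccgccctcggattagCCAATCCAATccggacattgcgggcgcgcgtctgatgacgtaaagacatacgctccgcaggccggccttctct
Rrm2: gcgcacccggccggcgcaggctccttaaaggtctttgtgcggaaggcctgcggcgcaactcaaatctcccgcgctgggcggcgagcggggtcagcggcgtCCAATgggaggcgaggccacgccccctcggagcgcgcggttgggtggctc
Mcm5: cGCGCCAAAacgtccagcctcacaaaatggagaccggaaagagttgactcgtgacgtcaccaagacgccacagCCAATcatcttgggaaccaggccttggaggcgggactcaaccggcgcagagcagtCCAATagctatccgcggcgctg
In genome order of the same build these are chr10:69352913-69353062 (minus strand) for Cdk1, chr4:118437344-118437493 (minus) for Cdc20, chr11:99024190-99024339 (minus) for Top2a and chr2:127831860-127832009 (minus) for Bub1. Cenpq lies at chr17:40934575-40934724 (minus), Rrm2 at chr12:24708104-24708253 (plus) and Mcm5 at chr8:75109359-75109508 (plus). Each stretch ends 1 base before the start site of the transcript that RefSeq lists first for the gene. The stretches of Cdk1, Cdc20 and Top2a, which had higher values in diabetic cells, hold 2, 1 and 3 CHR matches and 2, 2 and 4 CCAAT matches. That of Cdk1 also holds 1 E2F match. Bub1, also with higher values, has 2 CCAAT matches in its stretch. Its CHR match lies at base 15 after the start, outside the printed stretch. The stretches of Cenpq and Rrm2 hold 3 and 1 CCAAT matches, and that of Mcm5 holds 1 E2F and 2 CCAAT matches. Among the genes shown, Cenpq and Rrm2 had lower values in diabetic cells, Rrm2 on its brighter probe set only. The other probe set of Rrm2 differed by 0.27. For Cenpq and Rrm2 none of these letters for CHR or E2F was found in their windows. Bub1b, Ccnb2 and Mki67, not shown, had CHR matches in their windows and also had lower values.

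The share of promoters with CHR or E2F letters was not the same in mitosis and replication genes, while CCAAT was frequent in both. Windows from 250 bases before to 50 after the start were at hand for 40 of the 49 members, with the window listed first used for each gene. CHR matches were found in 14 of 19 promoters of the mitosis genes (73.7%) and in 3 of 12 of the replication genes (25%), beside 19.4% of 27025 promoters in all. CCAAT was found in 17 of 19 mitosis promoters (89.5%) and 9 of 12 replication promoters (75%), beside 37.9% of all promoters. Each of the 14 mitosis promoters with CHR also held a CCAAT match, a pair found in 7.70% of all promoters. E2F matches were found in 6 of 12 replication promoters (50%), those of Cdc6, Cdt1, Mcm3, Mcm5, Mcm6 and Mcm7. They were found in 1 of 19 mitosis promoters, that of Cdk1, and in 2.32% of all promoters. Among the 9 promoters of the G1 genes and inhibitors, 0 had a CHR and 1, that of Cdk2, an E2F match. The 17 tested members with a CHR match had a median log2 difference of 0.16, with 14 higher and 3 lower in diabetic cells. The 22 without a match had a median of 0.06, with 13 higher and 9 lower. Without diabetic replicate 1 the median of the members with CHR was 0.07, with 12 higher and 5 lower. That of all tested members, which include those with CHR and those with no window, was 0.02. The members without a CHR match were not taken alone in that omission. Of the 17 members with CHR, 14 are mitosis genes, so this split in part follows that by role. Over all tested genes 54% had higher values in diabetic cells. With and without CCAAT the medians were both 0.09 (27 and 12 members), and with and without E2F they were 0.11 and 0.09 (8 and 31 members). These medians are given as a description with no test.

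The G1 genes lay on both sides of zero. Of the D-type cyclins and their kinases, which carry growth signals into the cycle, Ccnd2 and Cdk4 had higher values in diabetic cells, by 0.08 and 0.30 on the log2 scale, and Ccnd1, Ccnd3 and Cdk6 lower, by -0.31, -0.06 and -0.05. Cdk4 differed by 0.08 without diabetic replicate 1, by 0.49 without diabetic replicate 3, by 0.47 without nondiabetic replicate 1 and by 0.06 without nondiabetic replicate 3, and Ccnd2 changed sign as single arrays were left out. Ccnd1, the cyclin most tied to growth factor signals, had log2 values of 6.64, 6.03 and 5.94 on diabetic arrays 1, 2 and 3 and 6.87, 6.30 and 6.37 on the nondiabetic arrays. Diabetic array 1 lay among the nondiabetic values and the other 2 diabetic arrays lay under them. The difference had a standard error of 0.24 (unadjusted p = 0.233, limma adjusted p = 0.997), and it was -0.53 without diabetic replicate 1, -0.18 without diabetic replicate 3 and -0.13 without nondiabetic replicate 1. E2f1, the transcription factor that these kinases set free, had values of 5.54, 4.99 and 5.31 in diabetic and 5.47, 5.75 and 5.58 in nondiabetic cells. Its groups overlapped through diabetic array 1 alone, its level lay close to the limit for dim genes, and the difference was -0.32 (SE 0.19), or -0.18 without diabetic replicate 2. Of the genes that take the cell from G1 into S phase, E2f1, Ccne1 and Cdk2, 3 of 3 had lower values in diabetic cells, with -0.09 for Ccne1 and -0.14 for Cdk2. That direction did not hold throughout, since Ccne1 was at 0.075 without diabetic replicate 1 and 0.038 with array weights, and Cdk2 at 0.090 without diabetic replicate 3. The probe set shared by Ccne2 and Ints8 stood at 6.70 ± 0.04 in diabetic and 6.59 ± 0.17 in nondiabetic cells (SD, n = 3 each).

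Among the inhibitors of cyclin-dependent kinases, Cdkn1a varied most between the diabetic arrays. This gene encodes p21, which stops the cycle after DNA damage and other stress. Its log2 values were 9.83, 9.90 and 8.13 on diabetic arrays 1, 2 and 3 and 9.04, 8.46 and 8.86 on the nondiabetic arrays. Diabetic arrays 1 and 2 were the highest of all 6, and diabetic array 3 was the lowest. The difference was 0.50 (SE 0.45, unadjusted p = 0.296, limma adjusted p = 0.997), and it was 1.08 without diabetic replicate 3, 0.23 without diabetic replicate 1 and 0.19 without diabetic replicate 2. Cdkn1b, which encodes p27, an inhibitor that holds quiescent cells in G1, stood at 7.86, 7.66 and 7.99 in diabetic and 7.70, 7.72 and 7.95 in nondiabetic cells. The groups overlapped, and the difference of 0.05 had a 95% interval of -0.32 to 0.42. Cdkn1c, which encodes the related inhibitor p57, stood at 7.04, 6.61 and 6.47 against 6.68, 6.49 and 6.56. Its highest value was again that of diabetic array 1, and the difference was 0.13 (SE 0.19). Cdkn2c, an inhibitor of CDK4 and CDK6, differed by -0.22 (SE 0.21), by -0.05 without diabetic replicate 2, by -0.08 without nondiabetic replicate 2 and by -0.34 without nondiabetic replicate 3.

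The genes that license and fire replication origins had mostly small differences. Among 10 such genes, 8 were higher and 2 lower in diabetic cells, with a median of 0.08. Without diabetic replicate 1, 5 of the 10 were higher and 5 lower. Mcm5, a subunit of the ring-shaped helicase that unwinds DNA, had log2 values of 7.24, 6.71 and 6.84 in diabetic and 6.77, 6.15 and 6.34 in nondiabetic cells. All but 1 of the diabetic arrays lay above the nondiabetic values, with diabetic array 2 below nondiabetic array 1. The difference was 0.51 (SE 0.22) or 1.43-fold (unadjusted p = 0.0483, limma adjusted p = 0.997), and 0.35 without diabetic replicate 1. The other subunits of the same ring had differences nearer to zero. Mcm2, Mcm3, Mcm4, Mcm6 and Mcm7 differed by 0.0069, 0.08, -0.11, -0.0069 and 0.15. Cdt1, which loads the ring onto DNA, differed by 0.30 (SE 0.20), and Cdc45, which turns it into the active helicase, by 0.30 (SE 0.24). Leaving out single arrays moved Cdt1 between 0.19 (without nondiabetic replicate 1) and 0.50 (without nondiabetic replicate 3), and Cdc45 between 0.15 (without diabetic replicate 1) and 0.52 (without nondiabetic replicate 3). The loading factor Cdc6 and the licensing inhibitor Gmnn (geminin) differed by 0.07 and 0.02.

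Genes of DNA synthesis held 1 member with non-overlapping groups. Rrm2 encodes the small subunit of ribonucleotide reductase, which makes the DNA building blocks, and is produced in S phase. Its brighter probe set, 17547690, had log2 values of 7.96, 7.80 and 8.04 in diabetic and 8.27, 8.75 and 8.26 in nondiabetic cells. All diabetic arrays lay below all nondiabetic arrays, and the difference was -0.49 (SE 0.18), 1.41-fold lower (unadjusted p = 0.0275, limma adjusted p = 0.997). The other probe set of Rrm2, 17274540, went the other way. There the values were 6.51, 6.43 and 6.51 in diabetic and 6.06, 6.48 and 6.11 in nondiabetic cells, a difference of 0.27 with overlap. With the mean of both probe sets the difference was -0.11, so the arrays do not settle a direction for Rrm2. Pcna, the sliding clamp of DNA polymerases, was nearly the same on all arrays, at 10.23, 10.16 and 10.05 in diabetic and 10.11, 10.11 and 10.18 in nondiabetic cells. The 95% interval around its difference of 0.02 ran from -0.31 to 0.34. Rrm1, the large subunit of ribonucleotide reductase, and Tyms, thymidylate synthase, differed by 0.15 and 0.10.

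**Figure D2:**
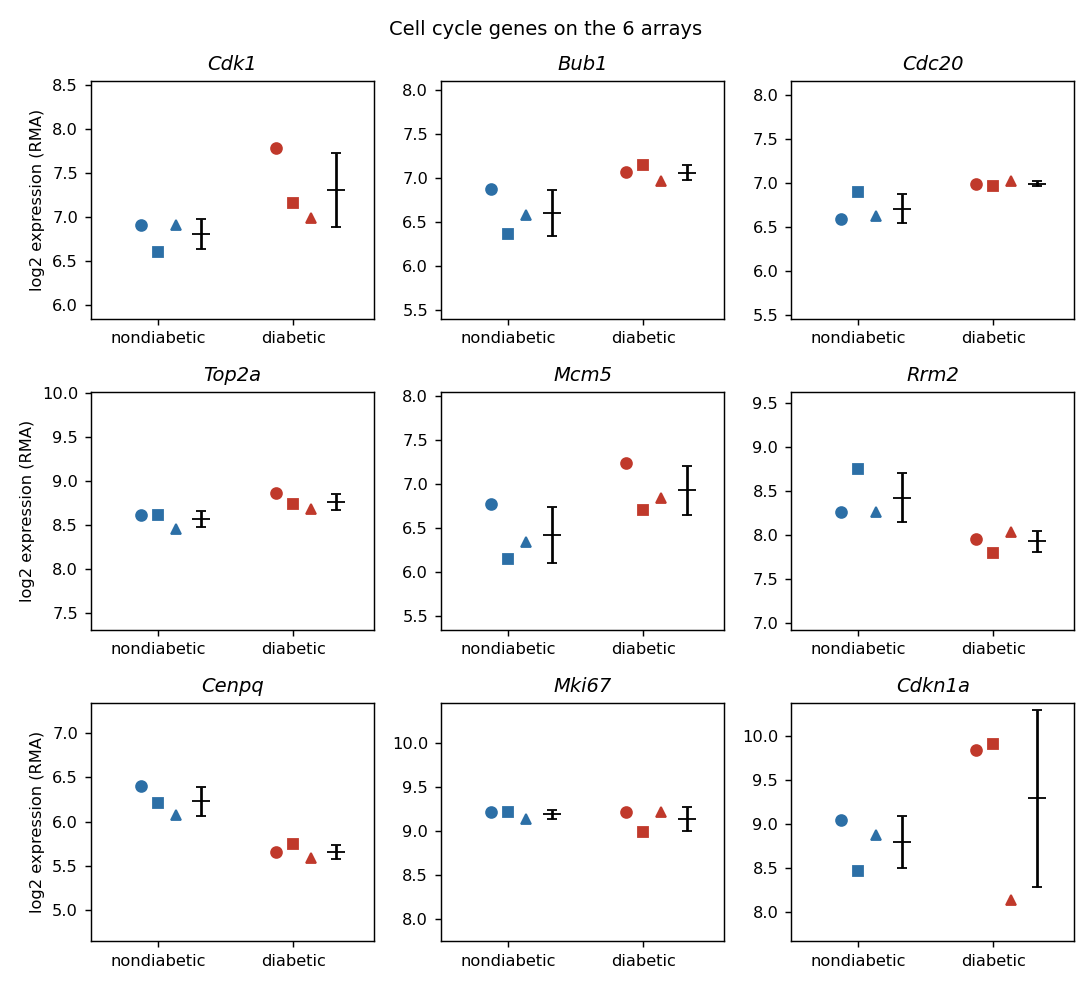
Log2 expression of 9 cell cycle genes on each array, with circles, squares and triangles for replicates 1, 2 and 3 of each group. The bar beside each group is its mean ± SD (n = 3), and each panel's axis spans the same number of log2 units. Cdk1, Bub1, Cdc20 and Top2a do not overlap with diabetic above nondiabetic, Rrm2 and Cenpq do not overlap with diabetic below, and the diabetic arrays of Cdkn1a spread from 8.13 to 9.90.

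Cdk1, the kinase that drives mitosis, had log2 values of 7.79, 7.16 and 6.99 in diabetic and 6.91, 6.61 and 6.91 in nondiabetic cells. The diabetic arrays all stood above the nondiabetic ones, diabetic array 1 by the widest margin and diabetic array 3 only just. The difference was 0.50 (SE 0.23) or 1.42-fold (unadjusted p = 0.0596, limma adjusted p = 0.997), and 0.27 without diabetic replicate 1. Its partners Ccna2 and Ccnb2 differed by 0.0077 (SE 0.33) and -0.05 (SE 0.21), with overlapping groups. Among the mitotic kinases and their partners, Aurka, the kinase of the spindle poles, had the smallest p. Its values were 6.70, 6.17 and 6.30 in diabetic and 5.96, 5.76 and 6.40 in nondiabetic cells, with overlap through nondiabetic array 3, and the difference was 0.35 (SE 0.22). It was 0.19 without diabetic replicate 1, 0.21 without nondiabetic replicate 2 and 0.53 without nondiabetic replicate 3. Birc5 (survivin) and Plk1 differed by 0.29 and 0.20, Aurkb by -0.0092, and Tpx2, which activates Aurora A on the spindle, by -0.16. Leaving out diabetic replicate 1 or 2 put Plk1 at 0.07 and 0.31 and Tpx2 at -0.28 and -0.05, and leaving out nondiabetic replicate 1 put Plk1 at 0.12.

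The checkpoint genes Bub1 and Cdc20 had groups that did not overlap. Bub1 encodes a kinase that recruits the spindle checkpoint to kinetochores. Its log2 values were 7.07, 7.15 and 6.97 in diabetic and 6.88, 6.36 and 6.58 in nondiabetic cells. Every diabetic array exceeded every nondiabetic one, and the difference was 0.46 (SE 0.18) or 1.37-fold (unadjusted p = 0.0316, limma adjusted p = 0.997). Leaving out single arrays moved it between 0.33 and 0.59. Cdc20 activates the ubiquitin ligase that ends the checkpoint, and its values were 7.0, 6.97 and 7.03 against 6.60, 6.90 and 6.63. The diabetic arrays lay tightly together and just above nondiabetic array 2, with a difference of 0.29 (SE 0.15). Mad2l1, the checkpoint protein that binds Cdc20, differed by 0.38 (SE 0.18), while the checkpoint kinase gene Ttk and Bub1b, the partner of Bub1, differed by 0.02 and -0.10. For 4 of the 5 checkpoint genes the diabetic mean was the higher one, and their median difference was 0.29, but 0 passed the adjusted test.

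Cenpq had the smallest p of all members. It encodes a subunit of the inner kinetochore complex that sits on centromeric chromatin. The log2 values were 5.65, 5.74 and 5.58 in diabetic and 6.40, 6.21 and 6.07 in nondiabetic cells. All diabetic arrays lay below all nondiabetic arrays, at levels not far above the limit for dim genes. The difference was -0.57 (SE 0.16), 1.49-fold lower (unadjusted p = 0.00608, limma adjusted p = 0.997), and it stayed between -0.65 and -0.48 as single arrays were left out. With the filter on dim genes at the 60th percentile Cenpq was not tested. The other centromere genes lay on the opposite side of zero, with 0.19 (0.08 without diabetic replicate 1 and 0.29 without diabetic replicate 2) for the centromeric histone gene Cenpa, 0.08 for the motor gene Cenpe and 0.10 for Cenpf.

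The usual markers of dividing cells differed little between the groups. Mki67, which encodes the proliferation antigen Ki-67, stood at 9.22, 8.99 and 9.22 in diabetic and 9.22, 9.22 and 9.13 in nondiabetic cells. The groups overlapped, and the difference of -0.05 had a 95% interval of -0.39 to 0.29. Top2a, the topoisomerase that untangles chromosomes before division, stood at 8.86, 8.73 and 8.68 against 8.61, 8.61 and 8.45. The groups did not overlap, and the difference was 0.20 (SE 0.15, unadjusted p = 0.216, limma adjusted p = 0.997). Another 2 probe sets name Top2a together with Taf1d, and there the differences were -0.38 and -0.51 with overlap, so the sign belongs to the probe set that names Top2a alone. The spindle motor genes Kif11 and Kif23 differed by 0.16 and 0.09, and Kif11 by 0.06 without diabetic or without nondiabetic replicate 1, by 0.31 without diabetic replicate 3 and by 0.27 without nondiabetic replicate 2. In these bulk samples a difference in the number of dividing cells and one in RNA per dividing cell cannot be told apart.

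Diabetic array 1 stood apart from the other arrays in these genes. It held the highest value of 21 of the 47 members (44.7%), against 29.9% of all tested genes, and the lowest value of 1 (2.13%), Ccne1, against 14.7%. On that array 42 members lay above their own mean over the 6 arrays, which is 89.4% of them against 65.1% of all tested genes. The members' median deviation from that mean was 0.17 there and 0.10 for all tested genes. On the other 2 diabetic arrays it was -0.03 and -0.07, and on nondiabetic arrays 1, 2 and 3 it was -0.05, -0.03 and -0.01. The replication genes had a median of 0.17 on diabetic array 1 and -0.14 on diabetic array 3, and the mitosis genes 0.17 and 0.05.

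**Figure D3:**
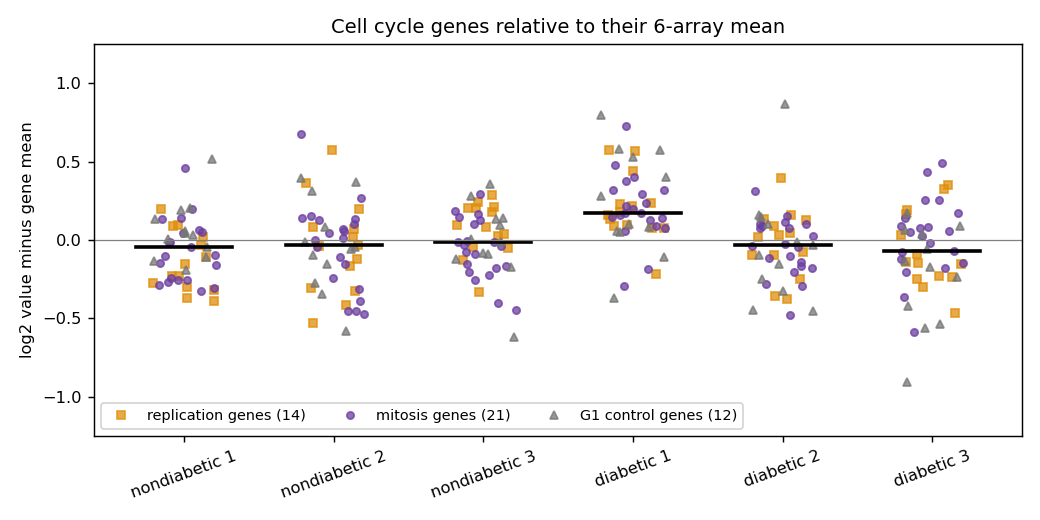
Log2 value of each of the 47 tested cell cycle genes minus that gene's mean over the 6 arrays, by array, with replication, mitosis and G1 control genes in separate colours and shapes. The black bar is the median over the 47 genes, which is 0.17 on diabetic array 1 and between -0.07 and -0.01 on the other 5 arrays.

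Markers of blood cells were measured beside the members, since precursors of blood cells divide in the marrow. The means of the monocyte list, with 10 of 11 genes tested, ran from 7.69 to 7.97 on the diabetic and 7.21 to 7.61 on the nondiabetic arrays, and those of the neutrophil list, with 10 of 12 tested, from 7.55 to 7.68 and 7.18 to 7.47. Both list means lay higher on every diabetic array, while the granule genes Camp and Ltf and the monocyte receptor gene Fcgr1 were dim. Single genes followed this less closely, with non-overlapping groups for 3 of the 10 monocyte and 1 of the 10 neutrophil genes. On diabetic array 3 the neutrophil list genes Elane (8.07), Prtn3 (6.84) and Ms4a3 (6.65) lay below every nondiabetic array. S100a8, of the same list, ran from 3.52 to 7.61 on the nondiabetic arrays. The erythroid list, 9 of 12 tested, ran from 6.76 to 7.17 and 6.85 to 7.17, and the list of blood stem and progenitor cells, 12 of 12 tested, from 7.42 to 7.64 and 7.41 to 7.55. Both overlapped between groups, and the progenitor list was highest on diabetic array 1, where its median deviation was 0.20. The B precursor list, 8 of 12 tested with Vpreb1 and Rag2 dim, ran from 5.97 to 6.25 and 5.76 to 5.98, with a small overlap. On diabetic array 1 the general endothelial list also stood highest, with a median deviation of 0.45. The median deviation on that array was 0.33 for the monocyte, 0.19 for the erythroid, 0.15 for the neutrophil and 0.12 for the B precursor list. It was -0.15 for the megakaryocyte list and 0.10 over all tested genes. Among markers of vessel types, 8 of 9 tested sinusoidal genes had a higher diabetic mean, with list means of 8.54 to 9.23 against 7.98 to 8.14, as did 1 of 11 arteriolar genes, with 7.64 to 8.19 against 8.09 to 8.47. The megakaryocyte list, 7 of 10 tested, overlapped at 8.45 to 9.38 and 8.20 to 9.19, and of the T and NK cell list 6 of 11 genes were dim, Cd3e and Cd3d among them. The part of any of these cells in the members' values was not tested.

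**Figure D4:**
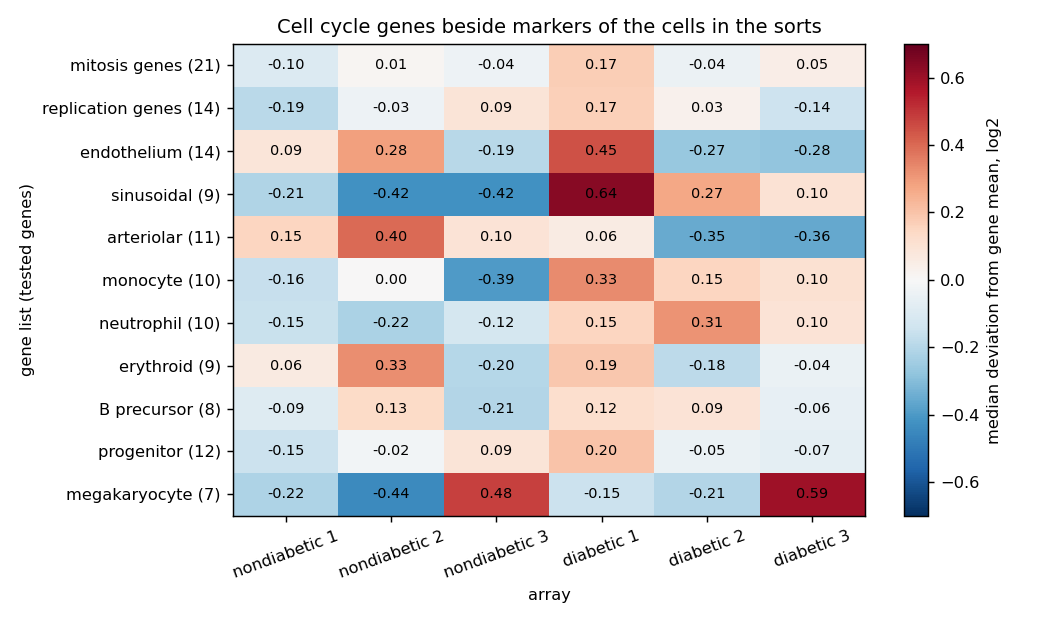
Median deviation from the gene's mean over the 6 arrays, in log2 units, for the mitosis and replication genes and for marker lists of endothelial and blood cells (number of tested genes in brackets), one column per array. Diabetic array 1 is high in the endothelial (0.45) and sinusoidal (0.64) lists as well as in the mitosis (0.17) and replication (0.17) genes. Of the blood lists it is at 0.33 for monocyte, 0.20 for progenitor, 0.19 for erythroid, 0.15 for neutrophil, 0.12 for B precursor and -0.15 for megakaryocyte genes. Over all tested genes that array's median deviation was 0.10.

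The rest of the pathway held 184 further cell cycle genes, of which 171 were tested. By limma 0 passed the adjusted test, the diabetic mean was above the nondiabetic one for 105 and below it for 66, and the median was 0.07. At an unadjusted p under 0.05 there were 13 higher and 1 lower, together 8.19% against the background of 4.25%, of which 3.19% were higher and 1.07% lower. Among the members that count was 2 higher and 2 lower, so the directions differed. For 14 higher and 2 lower the groups did not overlap, 9.36% against 7.95%, of which 5.28% were higher and 2.67% lower. Of 50 tested replication genes 30 had higher values. Their median deviation from the gene's mean over the 6 arrays was 0.16 on diabetic array 1, where all tested genes had 0.10. It was 0.0034 and -0.05 on diabetic arrays 2 and 3, and -0.07, 0.0036 and -0.13 on nondiabetic arrays 1, 2 and 3. Gins1, a subunit of the replicative helicase, stood at 6.46, 6.23 and 6.48 in diabetic and 5.84, 5.58 and 5.17 in nondiabetic cells. The groups lay well apart, with a difference of 0.86 (SE 0.20, unadjusted p = 0.00272, limma adjusted p = 0.997). Pole2, a subunit of the leading strand polymerase, lay the other way at 6.11, 5.69 and 5.43 against 6.29, 6.32 and 7.02, a difference of -0.80 (SE 0.26). Dut, the enzyme that keeps uracil out of DNA, differed by 0.49 (SE 0.15) with groups that did not overlap, on the brighter of its 2 probe sets, and by 0.0025 on the other, which was dim. The origin recognition gene Orc4 differed by -0.57 (SE 0.27).

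Of 91 other mitosis genes tested, 60 lay higher and 31 lower in diabetic cells, with a median of 0.07. Here too diabetic array 1 stood highest, with a median deviation of 0.20. Diabetic arrays 2 and 3 were at -0.0065 and -0.04, and nondiabetic arrays 1, 2 and 3 at -0.04, -0.03 and -0.07. Espl1 (separase), which cuts the rings that hold sister chromatids, and Kif2c, a kinesin that shortens microtubules, differed by 0.50 (SE 0.18) and 0.45 (SE 0.16), and neither overlapped between groups. The smallest p-values on the lower side were those of the phosphatase gene Cdc25b, at -0.39 (SE 0.21), and Fbxo5, an inhibitor of the anaphase-promoting complex, at -0.28 (SE 0.17). Of 30 tested regulators of G1, 15 had higher and 15 lower values. Cks1b, a small subunit of cyclin-dependent kinases, stood at 6.26, 6.34 and 6.88 in diabetic and 5.92, 5.85 and 5.75 in nondiabetic cells. Those groups did not overlap, and the difference was 0.65 (SE 0.20, unadjusted p = 0.0105, limma adjusted p = 0.997). The phosphatase gene Cdkn3 differed by 0.99 (SE 0.40) with overlap, and Tfdp2, the partner of E2F factors, and Cdk7, the kinase that activates other cyclin-dependent kinases, by -0.29 and -0.28.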

How the data were processed

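RNA from sorts of 5000 cells was amplified (Ovation Pico WTA) for microarrays, per the labels' protocols. The deposited values are log2 expression, summarised by RMA per the submitters' processing notes. The version used for it is not given in the sources used here. Values ran from 2.16 to 13.30 and array medians from 5.21 to 5.28. The number of arrays limits the precision.

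Of 41345 probe sets 23521 named 1 gene in the platform annotation, 1814 named several and 16010 had no name here. Each of 22180 genes took its brightest probe set by the mean over the 6 arrays. Genes under the 40th percentile of that mean, 5.07, were left out as dim, which left 13308 and removed none of the 47 measured members. Diabetic and nondiabetic arrays were fitted in limma 3.58.1, run under R 4.3.3 (lmFit and eBayes, no covariates, Benjamini-Hochberg over all tested genes, threshold 0.05). The procedure was tried on simulated data in which 200 of 13308 genes were changed. It recovered 42% of them at a log2 change of 1 and 92% at a change of 2, with 2.33% and 6.12% of the calls false. Smaller changes were not simulated, and no member differed by more than 1, so true differences of the members' size could be missed. Nothing in the labels says that the samples are separate mice. The p-values therefore reflect only how these samples vary, possibly for technical reasons. An exact permutation test of 3 arrays against 3 cannot go below p = 0.1 and was not used.

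The members and the gene lists were chosen with earlier results of these data known. Values per array are given for members whose groups do not overlap, with an unadjusted p under 0.05, with the smallest p in their role, with probe sets that disagree, and for 7 textbook genes. In each further list the 2 smallest p-values per direction are named. Promoter windows are RefSeq's on GRCm38.p6. The alternatives were other filters, probe set rules, normalizations and variance models, array weights, a block for the replicate number, and omission of each array in turn.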

Additional observations from a re-analysis of the deposited data

How the results depend on the processing

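Under the 15 alternatives, 0 members and 0 of the further cell cycle genes were called by limma, and the smallest adjusted p of a member under any of them was 0.47, with array weights. The members' median difference lay between 0.02 and 0.16 in all of them, and that of all tested genes between -0.0065 and 0.04. Both were lowest without diabetic replicate 1 and highest without diabetic replicate 3. At an unadjusted p under 0.05 there were 1 to 5 members, with 2 at the 60th percentile filter and 1 without nondiabetic replicate 2. With the replicate block there were 3, the median stayed at 0.08 and no call changed. The labels do not say whether the replicate numbers pair the samples. The deviations of same-numbered arrays from their group means correlated at -0.04, -0.06 and 0.02, and those of differently numbered arrays at -0.03 to 0.07. No shared effect of the replicate number was seen, but this cannot show that the samples were unpaired. The sign was the same under every alternative that tested the gene for 22 members, 16 higher and 6 lower. It changed under at least 1 for 25, none of which differed by more than 0.15. The cause of these changes was not tested. The filters, the variance models, the replicate block and the run on single probe sets left each member's difference as it was. Agreement in sign under those alternatives was therefore fixed beforehand. Rrm2 is among the 6 lower members, though its other probe set differed by 0.27. With array weights the difference was 0.038 for Ccne1, -0.039 for Cdkn1b, -0.046 for Gmnn, -0.034 for Mcm2, -0.080 for Mcm3, 0.034 for Mcm6, -0.14 for Tyms, -0.18 for Ccna2, 0.031 for Aurkb, -0.058 for Ttk. Normalized again by quantiles it was -0.015 for Gmnn, -0.014 for Mcm2, -0.011 for Pcna, -0.014 for Ccna2, and centred on the median 0.0012 for Mcm6. Leaving out single arrays turned the sign of 25 members. The ranges were Aurkb -0.064 to 0.078, Bub1b -0.33 to 0.16, Ccna2 -0.24 to 0.35, Ccnb2 -0.19 to 0.18, Ccnd2 -0.16 to 0.39, Ccnd3 -0.17 to 0.11, Ccne1 -0.18 to 0.075, Cdc6 -0.017 to 0.21, Cdk2 -0.47 to 0.090. For the next genes they were Cdk6 -0.10 to 0.0064, Cdkn1b -0.028 to 0.13, Cdkn1c -0.036 to 0.25, Cenpe -0.097 to 0.17, Gmnn -0.26 to 0.26, Kif23 -0.048 to 0.21, Mcm2 -0.11 to 0.11, Mcm3 -0.013 to 0.23, Mcm4 -0.26 to 0.011. The remaining ranges were Mcm6 -0.16 to 0.17, Mcm7 -0.014 to 0.31, Mki67 -0.087 to 0.030, Pcna -0.026 to 0.066, Rrm1 -0.0033 to 0.28, Ttk -0.17 to 0.18, Tyms -0.049 to 0.30. The number of arrays limits the precision.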

Other observations

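Genes of quiescence and cell cycle arrest outside the members, 14 of 16 tested, had higher values in diabetic cells for 9 and lower for 5, with a median log2 difference of 0.04, and 0 passed limma's adjusted test (0 at an unadjusted p under 0.05). Gadd45b, a stress-induced gene of growth arrest, had log2 values of 8.76, 9.11 and 8.92 in diabetic and 8.62, 8.32 and 8.74 in nondiabetic cells. The groups did not overlap, with diabetic array 1 just above nondiabetic array 3, and the difference was 0.37 (SE 0.18). Btg2, an antiproliferative gene induced by p53, differed by 0.33 (SE 0.19) with overlap. On the lower side the smallest p-values were those of Klf4, a transcription factor of quiescent endothelium, at -0.28 (SE 0.27), and Dyrk1a, a kinase that promotes exit from the cycle, at -0.20 (SE 0.24).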
